A study of Mus musculus with 4 samples.

Results

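The 34 genes described here carry out DNA replication and mark the S phase of the cell cycle. They were read in single cells of mouse pancreatic ductal adenocarcinoma, with the question whether gemcitabine leaves an S-phase mark. They were chosen by symbol as a list of known function, and all 34 are among the 32285 genes counted in each library. Single-cell RNA was counted in 4 droplet libraries (10x Genomics), 1 for each of the groups GPH, G, PH and control. G received gemcitabine, PH received paricalcitol, an agonist of the vitamin D receptor, with hydroxychloroquine, an inhibitor of lysosomal degradation, and the control received PBS. The label of GPH gives gemcitabine at 60 mg per kg by intraperitoneal injection and then breaks off, so its group was read from the sample title, whose letters match those of the other labels, and is taken as gemcitabine with paricalcitol and hydroxychloroquine. The labels give no dose for the other groups, and the strain, age and tumour model of the animals and the times of treatment are not given in the sources used here. Each library pooled tumour from 3 animals, so a group is 1 library. No test was possible, the spread between animals is unknown, and each interval below is a 95% interval. Intervals of levels, ratios and shares cover counting error only, while that of a median reflects the spread between the genes of the list.

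During G1, origins of replication are licensed when Cdc6 and Cdt1 load the Mcm helicase. Helicase activation by Cdc45, the GINS complex and Mcm10 then starts synthesis, which polymerases carry out on the sliding clamp Pcna, while Tyms, Tk1 and Dut supply thymidine nucleotides and keep uracil out of DNA. E2F transcription factors switch many of these genes on as cells enter S phase. Gemcitabine is a deoxycytidine analogue that is built into growing DNA and also inhibits ribonucleotide reductase (Rrm1 with Rrm2), so that it acts on cells in S phase and is known to stall replication forks.

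The promoters of these genes are shown for the members whose levels differed most between libraries. RefSeq promoter sequences (GRCm38.p6, the patch release of mm10, 250 bases before to 50 after the transcription start) were on hand for 28 of the 34 genes. They were searched on both strands for the E2F motif letters TTTCCCGC, TTTCGCGC, TTTGCCGC and TTTGGCGC, with overlapping matches allowed. At least 1 match was found in 12 of the 28 genes (42.9%), against 2.6% of all 27025 genes with a promoter in the table. The letters CCAAT stood in 53.6% of the 28 and in 41.1% of all genes, and TTTGAA, which is part of the CHR element of mitotic genes, in 10.7% and 20.2%. A match is a description of the letters, not evidence of binding. Below, capitals mark an E2F match: Cdt1 (chr8:122567765-122568064, plus strand) and Pclaf (chr9:65890073-65890372, plus strand) hold 1 each, while Dut (chr2:125247265-125247564, plus strand) and Tk1 (chr11:117825965-117826264, minus strand) hold none in this window. The window of Dut lies within the gene as Ensembl places it, from base 125247190. Letters upstream of that start were not searched, so no lack of a match is read for Dut. Each is written 5′ to 3′ along the strand of the gene.
Cdt1: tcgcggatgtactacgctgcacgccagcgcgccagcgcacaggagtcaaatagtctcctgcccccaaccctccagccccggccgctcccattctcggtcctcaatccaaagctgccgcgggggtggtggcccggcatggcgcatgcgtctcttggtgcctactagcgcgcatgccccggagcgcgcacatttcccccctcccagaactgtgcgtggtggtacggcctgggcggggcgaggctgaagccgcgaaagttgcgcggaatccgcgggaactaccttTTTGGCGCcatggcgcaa
Pclaf: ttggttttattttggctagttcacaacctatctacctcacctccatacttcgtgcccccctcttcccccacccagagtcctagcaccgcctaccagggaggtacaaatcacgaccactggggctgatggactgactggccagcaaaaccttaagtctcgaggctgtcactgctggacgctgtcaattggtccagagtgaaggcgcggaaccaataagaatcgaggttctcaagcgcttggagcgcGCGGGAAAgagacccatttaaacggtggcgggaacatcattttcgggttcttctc
Dut: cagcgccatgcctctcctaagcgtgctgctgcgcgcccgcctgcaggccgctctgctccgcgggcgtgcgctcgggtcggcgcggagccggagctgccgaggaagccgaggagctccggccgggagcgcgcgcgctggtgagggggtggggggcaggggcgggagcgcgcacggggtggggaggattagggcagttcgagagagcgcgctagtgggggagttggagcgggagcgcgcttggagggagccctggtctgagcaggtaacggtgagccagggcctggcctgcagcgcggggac
Tk1: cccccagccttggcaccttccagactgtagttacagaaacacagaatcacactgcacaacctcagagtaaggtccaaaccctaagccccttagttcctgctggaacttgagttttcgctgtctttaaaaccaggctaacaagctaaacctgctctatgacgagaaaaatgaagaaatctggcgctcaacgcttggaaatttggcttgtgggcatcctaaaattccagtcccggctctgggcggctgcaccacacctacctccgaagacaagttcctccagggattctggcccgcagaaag

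The cells kept for analysis numbered 4411 in GPH, 12449 in G, 13977 in PH and 10074 in control, with median depths of 20103, 4610, 7862 and 9635 UMIs (unique molecular identifiers, each 1 counted RNA molecule). GPH stood apart: 41.0% of its barcodes had over 20% mitochondrial UMIs and were left out, against 12.7% to 15.6% in the other libraries. Cells were clustered, and clusters without the leukocyte gene Ptprc were grouped by Vim (vimentin) or Krt19 (keratin 19). Vim-high cells, clusters 4 to 10, numbered 1454 in GPH, 1902 in G, 10647 in PH and 7942 in control. Krt19-high cells, cluster 0, numbered 1878 in GPH and 1305 in G but only 5 in PH and 1 in control, and had 7 of 8 detected ductal markers raised. T-like cells numbered 54, 3918, 435 and 438, and NK-like cells 13, 1073, 116 and 269, in the same order of libraries. A cell was called cycling with at least 1 UMI of Top2a and Cenpf, a topoisomerase and a kinetochore protein that peak in G2 and mitosis. Of 56056 distinct barcodes, 317 occurred in 2 libraries and 1 in 3.

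Several measures of the libraries move with the comparisons and touch every result below, and their part in the results was not tested. The Vim-high class is a range of clusters and not 1 cell type. Cluster 4 had the fibroblast markers Dpt and Dcn among its 10 leading genes, cluster 5 had Dcn, and neither had a marker of mesenchymal tumour cells there, although Cdkn2a reached 957 CPM in cluster 4 and 1222 CPM in cluster 5 (CPM, UMIs of a gene per 1000000 UMIs of the cells summed). Both had 4 of 4 detected fibroblast markers raised. Xist was at 6.41 CPM in cluster 4 and 1.09 CPM in cluster 5. It was at 212 CPM in cluster 18, which lay outside the classes and had 6 of 6 detected fibroblast markers raised. Cdkn2a was at 467 CPM in cluster 18. Cluster 4 held 65.7% of Vim-high cells in GPH, 24.4% in G, 1.62% in PH and 10.2% in control, so values are also given by cluster and without it. All 8 fibroblast markers were detected in Vim-high cells of every library, and their summed level was 1314 CPM in GPH, 780 CPM in G, 446 CPM in PH and 682 CPM in control. Genes of the Y chromosome, Eif2s3y, Kdm5d and Uty, summed to 11.7, 8.57, 0.475 and 0.0762 CPM in Vim-high cells of GPH, G, PH and control, so gemcitabine and a difference in the animals or cell lines behind these RNAs cannot be told apart. In T-like cells these genes summed to 0, 0.389, 0 and 0 CPM, and Xist had 1510, 1147, 1153 and 876 CPM, in the same order. The Y-linked difference was thus seen in Vim-high cells and not in T-like cells. The libraries also fell into pairs that cut across gemcitabine. Nmt1, a gene outside the list that was picked after its values were seen, had 100 CPM in GPH, 26.4 in G, 26.0 in PH and 113 in control in Vim-high cells, and in T-like cells it had 180 CPM, 36.6, 32.4 and 152 CPM in the same order.

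In Vim-high cells the replication genes did not differ in 1 direction with gemcitabine. In cycling cells their summed level was 1173 CPM in GPH (1155 to 1192), 1825 in G (1804 to 1845), 1646 in PH (1636 to 1655) and 1635 in control (1625 to 1644). G was the highest library and GPH the lowest, while the ratio of PH to control was 1.01 (0.998 to 1.02). The ratio of G to control was 1.12 (1.10 to 1.13) and that of GPH to PH was 0.713 (0.701 to 0.725). In cells without a Top2a or Cenpf UMI, the summed level was 498 CPM in GPH (487 to 510), 582 in G (567 to 597), 559 in PH (553 to 565) and 577 in control (571 to 584). The ratio of G to control was 1.01 there (0.980 to 1.04), an interval that includes 1, and that of GPH to PH was 0.891 (0.869 to 0.914).

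**Figure D1:**
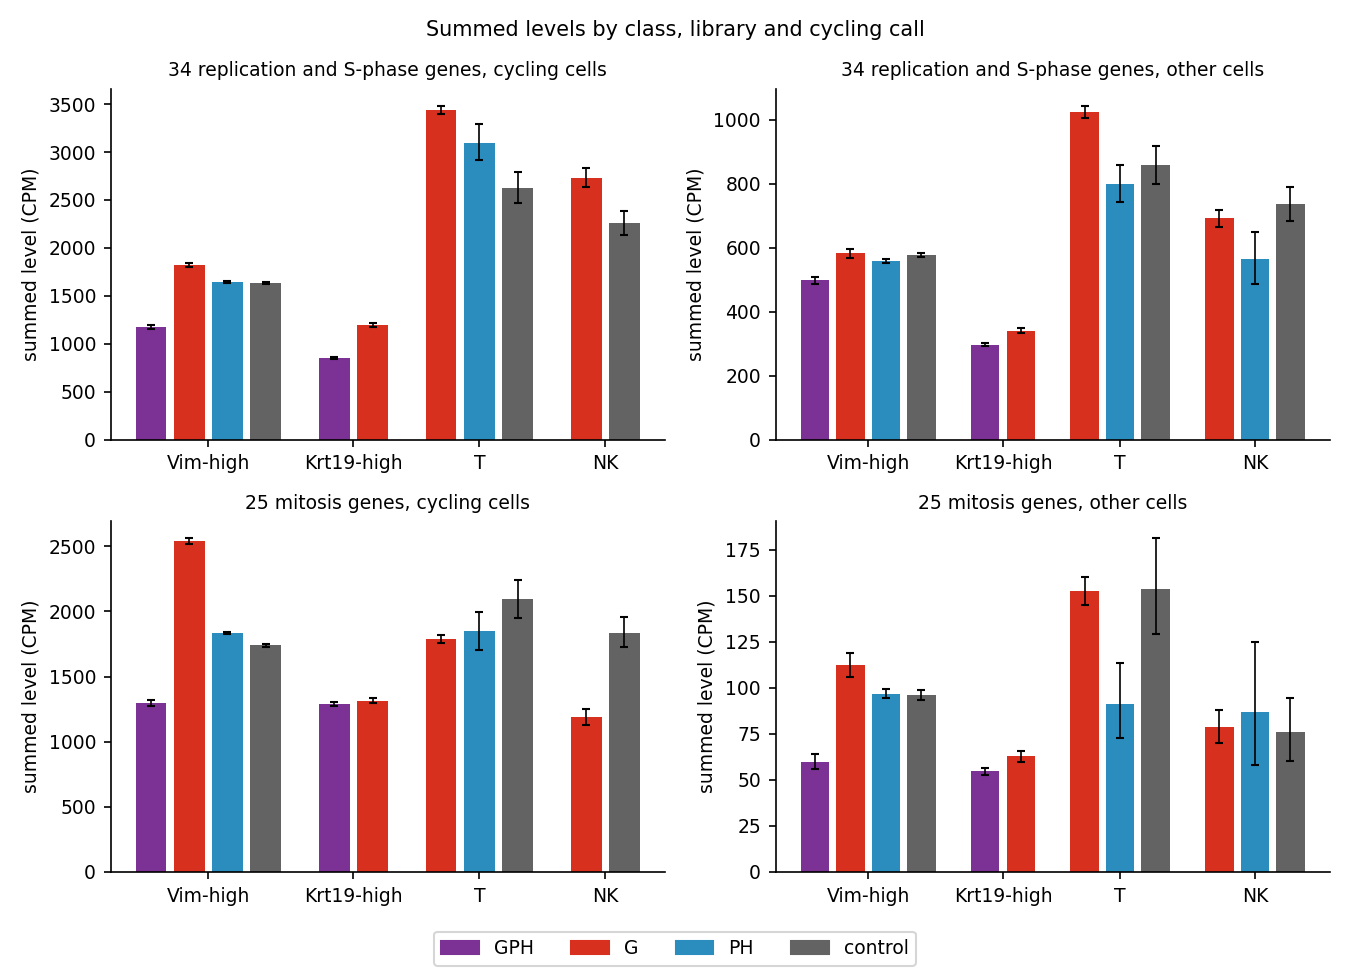
Summed level in CPM (vertical axis) of the 34 replication genes (top) and of 25 mitotic genes (bottom) in cycling and in other cells of each class, by library, with 95% counting intervals as error bars. For the replication genes, cycling Vim-high cells read 1173 CPM in GPH, 1825 in G, 1646 in PH and 1635 in control, and cycling T-like cells 3442 CPM in G against 2628 in control.

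Mitotic genes followed the same order more steeply in cycling Vim-high cells. A list of 25 mitotic genes (Top2a and Cenpf not among them) summed to 1297 CPM in GPH, 2539 in G, 1833 in PH and 1740 in control. Replication UMIs per mitotic UMI, over all Vim-high cells, were 1.26 in GPH (1.24 to 1.29), 0.835 in G (0.824 to 0.847), 1.12 in PH (1.11 to 1.13) and 1.14 in control (1.13 to 1.15). G thus had fewer replication transcripts per mitotic transcript than the other libraries, and GPH more. Within cycling cells alone the ratio was 0.904 in GPH, 0.718 in G, 0.898 in PH and 0.940 in control, where GPH no longer stood above the others.

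A gene counted as measured in a comparison at a mean of 10 CPM and 20 UMIs over both libraries, and as higher or lower at 1.5-fold. For G against control in cycling Vim-high cells, 30 of the 34 genes were measured, 24 of them above 0 in log2 ratio. Only Pole was at least 1.5-fold higher, where 4.13% of all measured genes were, and only Ccne2 at least 1.5-fold lower, where 6.80% of all were. Both were under 10 CPM in their lower library and were measured only through the higher one, so 0 members with both libraries at 10 CPM or more passed 1.5-fold. The median log2 ratio was 0.22 (0.14 to 0.27), against -0.03 over 6399 genes. For GPH against PH, 29 were measured, Cdt1 was higher and 7 were lower, with a background of 17.4% higher and 7.11% lower. Of the 7, Pole and Chaf1b were under 10 CPM in GPH, which leaves 5. The median was -0.33 (-0.55 to -0.07), against 0.10 over all 6824 genes measured, so the general shift of this comparison ran the other way. Both comparisons measured 29 genes in common, and 22 of them were above 0 for G against control and below 0 for GPH against PH. Of the rest, 3 went the opposite way, 2 were above 0 and 2 below 0 in both. Neither median kept its sign when cycling was called after thinning each cell to 2000 UMIs, where they were -0.03 and 0.12, and that of GPH against PH was 0.27 without cluster 4.

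Among the cycling cells without gemcitabine, PH against control had a median of 0.07 over 29 genes, with 0 higher (background 7.62%) and Mcm7 and Ccne2 lower (background 6.74%). Ccne2 was under 10 CPM in PH. The comparison of GPH with G, which both hold gemcitabine, had a median of -0.48 over 29 genes, with 0 higher (background 22.2%) and 11 lower (background 6.34%). Of the 11, Gins1 and Pole were under 10 CPM in GPH, which leaves 9. For GPH against control the median was -0.32 over 28 genes, with 1 higher (background 20.8%) and 7 lower (background 7.65%). Of the 7, Ccne2 was under 10 CPM in GPH, which leaves 6. These comparisons share libraries with each other, so they are not separate observations.

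In Vim-high cells called other, fewer members were measured. G against control had 14 measured genes and a median of -0.03, with Cdt1 and Pclaf higher (background 8.05%) and Rfc3 and Mcm7 lower (background 7.97%). Cdt1 and Pclaf were under 10 CPM in control and were measured only through G. GPH against PH had 12 measured genes and a median of 0.16, below the 0.19 of all genes, with Cdt1 higher (background 21.3%; measured only through GPH) and Dut lower (background 4.93%). PH against control had 13 measured genes and a median of -0.11, with 0 higher (background 7.38%) and Mcm7 lower (background 9.79%). GPH against G had 12 and a median of 0.05, with 0 higher (background 17.5%) and Dut lower (background 3.68%), and GPH against control had 13 and a median of -0.25, with Cdt1 higher (background 23.4%; again only through GPH) and Dut and Rfc4 lower (2 members, background 7.62%).

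Cdt1 was the only member at least 1.5-fold higher in both gemcitabine comparisons, in cells called other. It encodes the licensing factor that brings the Mcm helicase to origins and is destroyed once S phase begins. Its level there was 23.0 CPM in GPH, 15.9 in G, 8.28 in PH and 7.76 in control, so both gemcitabine libraries were above both libraries without it, which lay under 10 CPM. The ratio was 2.05 (1.70 to 2.47) for G against control and 2.78 (2.42 to 3.20) for GPH against PH. In cycling cells it had 25.0, 20.2, 14.7 and 13.5 CPM in GPH, G, PH and control, with ratios of 1.50 (1.32 to 1.70) and 1.70 (1.50 to 1.93). This order was kept within clusters 4 and 9, which were chosen after the data had been seen. In cluster 4, Cdt1 had 26.3 CPM in GPH, 25.0 in G, 13.7 in PH and 11.6 in control, and in the mitotic cluster 9 it had 31.1, 20.5, 16.5 and 16.4 CPM. Without cluster 4 it had 12.8 CPM in GPH, 9.38 in G, 8.17 in PH and 7.32 in control in cells called other, where the libraries lay closer together. G against control was then under 1.5-fold, with both under 10 CPM. The higher level was not found in T-like cells called other, where Cdt1 had 10.6 CPM in G, 15.6 in PH and 16.5 in control. Cycling T-like cells had 34.3 CPM in G, 29.7 in PH and 17.9 in control, from 262, 10 and 7 UMIs, so G and PH were both above control. In NK-like cells called other Cdt1 had 9.61 CPM in G, 27.0 in PH and 5.77 in control, from 37, 9 and 6 UMIs. PH, without gemcitabine, was the highest there. Cycling NK-like cells had 15.2 CPM of Cdt1 in G and 22.5 in control, from 18 and 12 UMIs.

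The other licensing genes differed less. The 8 of them (Mcm2 to Mcm7, Cdc6 and Cdt1) summed to 254 CPM in GPH, 302 in G, 260 in PH and 278 in control in cycling Vim-high cells. Mcm4 had 32.9 CPM in GPH, 43.7 in G, 35.2 in PH and 31.0 in control, and Mcm5 had 24.4, 34.7, 27.4 and 25.4 CPM. These subunits of the helicase ring were thus highest in G and close together in the other libraries, with ratios of G to control of 1.41 (1.30 to 1.54) for Mcm4 and 1.36 (1.24 to 1.50) for Mcm5. Mcm7, another subunit of the ring, went a different way, with 70.2 CPM in GPH, 67.0 in G, 57.4 in PH and 90.5 in control. Its ratio was 0.740 (0.694 to 0.789) for G against control and 1.22 (1.14 to 1.31) for GPH against PH. Mcm6 had, among the other cells, a ratio of 0.749 (0.655 to 0.853) for GPH against PH and Mcm4 one of 1.22 (1.05 to 1.41). Cdc6, the loader that acts with Cdt1, stayed under the level of measurement at 5.82 CPM in GPH, 8.06 in G, 5.45 in PH and 5.85 in control.

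The helicase activation genes were low throughout Vim-high cells. Their sum in cycling cells was 49.5 CPM in GPH, 74.2 in G, 59.6 in PH and 58.6 in control, for Mcm10, Gins1, Gins2 and Cdc45. Mcm10 was not measured, and none of the other three passed 1.5-fold in either gemcitabine comparison.

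Polymerases and fork proteins were highest in G and lowest in GPH as a sum. The 11 of them summed to 461 CPM in GPH, 583 in G, 536 in PH and 553 in control in cycling cells. Pcna, the sliding clamp, had 147 CPM in GPH, 186 in G, 185 in PH and 157 in control in cycling cells. Its level among the other cells was 105, 99.7, 87.2 and 74.0 CPM, again in GPH, G, PH and control. It was there higher in both gemcitabine libraries, with ratios of 1.35 (1.26 to 1.44) for G against control and 1.1997 (1.13 to 1.27) for GPH against PH, the second of which turned below 1 without cluster 4. Pole, the catalytic subunit of the leading-strand polymerase, had 8.40 CPM in GPH, 13.1 in G, 12.9 in PH and 7.08 in control. Its ratio of G to control was 1.85 (1.57 to 2.17), and it was past 1.5-fold in opposite directions in the gemcitabine comparisons, each time with the lower library under 10 CPM. It paired G with PH and GPH with control, as Nmt1 did in the reverse sense.

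The clamp loader subunits Rfc2, Rfc3 and Rfc4 did not move together. Rfc3 had 83.7 CPM in GPH, 79.5 in G, 73.3 in PH and 100 in control in cycling cells, with ratios of 0.794 (0.749 to 0.842) for G against control and 1.14 (1.07 to 1.22) for GPH against PH. Rfc4 had 34.04 CPM in GPH, 59.6 in G, 49.2 in PH and 53.4 in control, and was at 0.692 (0.626 to 0.764) in GPH against PH. Rfc2 had a ratio of 0.923 (0.857 to 0.993) for G against control. Among the other cells, Rfc3 was at 0.661 (0.592 to 0.737), Rfc4 at 0.701 (0.593 to 0.825), Rfc2 at 0.867 (0.759 to 0.988) and Lig1, the ligase that joins Okazaki fragments, at 0.799 (0.686 to 0.927) for G against control. Rfc4 was at 0.718 (0.619 to 0.828) there for GPH against PH.

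Of the 4 genes of thymidine nucleotide supply, 3 were measured in cycling cells, and Dut and Tk1 were at least 1.5-fold lower in GPH than in PH. Dut, the dUTPase that keeps dUTP low, had 141 CPM in GPH, 361 in G, 345 in PH and 323 in control in cycling Vim-high cells, and 44.7, 112, 117 and 105 CPM in cells called other. GPH lay below the other 3 libraries in both sets, and the other 3 lay close together. The ratio of GPH to PH was 0.410 (0.391 to 0.429) in cycling cells and 0.381 (0.351 to 0.413) in the others. Tk1, thymidine kinase of the salvage pathway, had 13.8 CPM in GPH, 36.2 in G, 40.4 in PH and 31.9 in control in cycling cells, a ratio of GPH to PH of 0.343 (0.293 to 0.398). Tyms, thymidylate synthase, had 46.3 CPM in GPH, 75.5 in G, 64.9 in PH and 72.6 in control. Ung, which excises uracil from DNA, was not measured, at 2.04 to 4.74 CPM. Dut and Tk1 were also lowest in GPH within cluster 9, where Dut had 273 CPM in GPH, 416 in G, 489 in PH and 449 in control and Tk1 had 36.3, 49.3, 71.4 and 55.1 CPM. Without cluster 4, Dut had 222 CPM in GPH, 387 in G, 348 in PH and 345 in control in cycling cells. Tk1 had 24.6, 39.1, 40.9 and 34.5 CPM there in the same order. GPH stayed the lowest for both but lay nearer to PH than with cluster 4 included.

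Of the genes of chromatin and histones, Pclaf differed most. It encodes the clamp-associated factor PAF15, and had 80.5 CPM in GPH, 243 in G, 205 in PH and 177 in control in cycling Vim-high cells. G was the highest library and GPH the lowest, with ratios of 1.38 (1.33 to 1.43) for G against control and 0.393 (0.369 to 0.418) for GPH against PH. Without cluster 4 it had 147 CPM in GPH, 262 in G, 207 in PH and 192 in control in cycling cells. GPH was still the lowest there but lay nearer to PH. Among the other cells Pclaf had 1.78 CPM in GPH, 16.8 in G, 13.1 in PH and 9.94 in control, a ratio of G to control of 1.69 (1.41 to 2.01). Uhrf1, which brings maintenance DNA methylation to new strands, had 21.3 CPM in GPH, 36.4 in G, 38.1 in PH and 30.3 in control, a ratio of GPH to PH of 0.559 (0.493 to 0.633). Slbp, which binds the stem-loop of histone mRNAs, went the other way. It had 72.2 CPM in GPH, 76.3 in G, 58.6 in PH and 65.2 in control, and a ratio of GPH to PH of 1.23 (1.15 to 1.32) in cycling cells and 1.39 (1.28 to 1.51) in cells called other, where that of G to control was 1.26 (1.14 to 1.39).

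The G1 to S regulators were low. Ccne2, a cyclin E that activates Cdk2 at S-phase entry, had 9.23 CPM in GPH, 6.999 in G, 7.36 in PH and 15.0 in control in cycling cells, and a ratio of G to control of 0.466 (0.382 to 0.564). Control was the highest library and the other 3 lay lower, PH included. E2f1, an activating E2F, had a ratio of 0.849 (0.720 to 0.996), and Ccne1, the other cyclin E, was not measured, at 1.59 to 3.35 CPM.

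**Figure D2:**
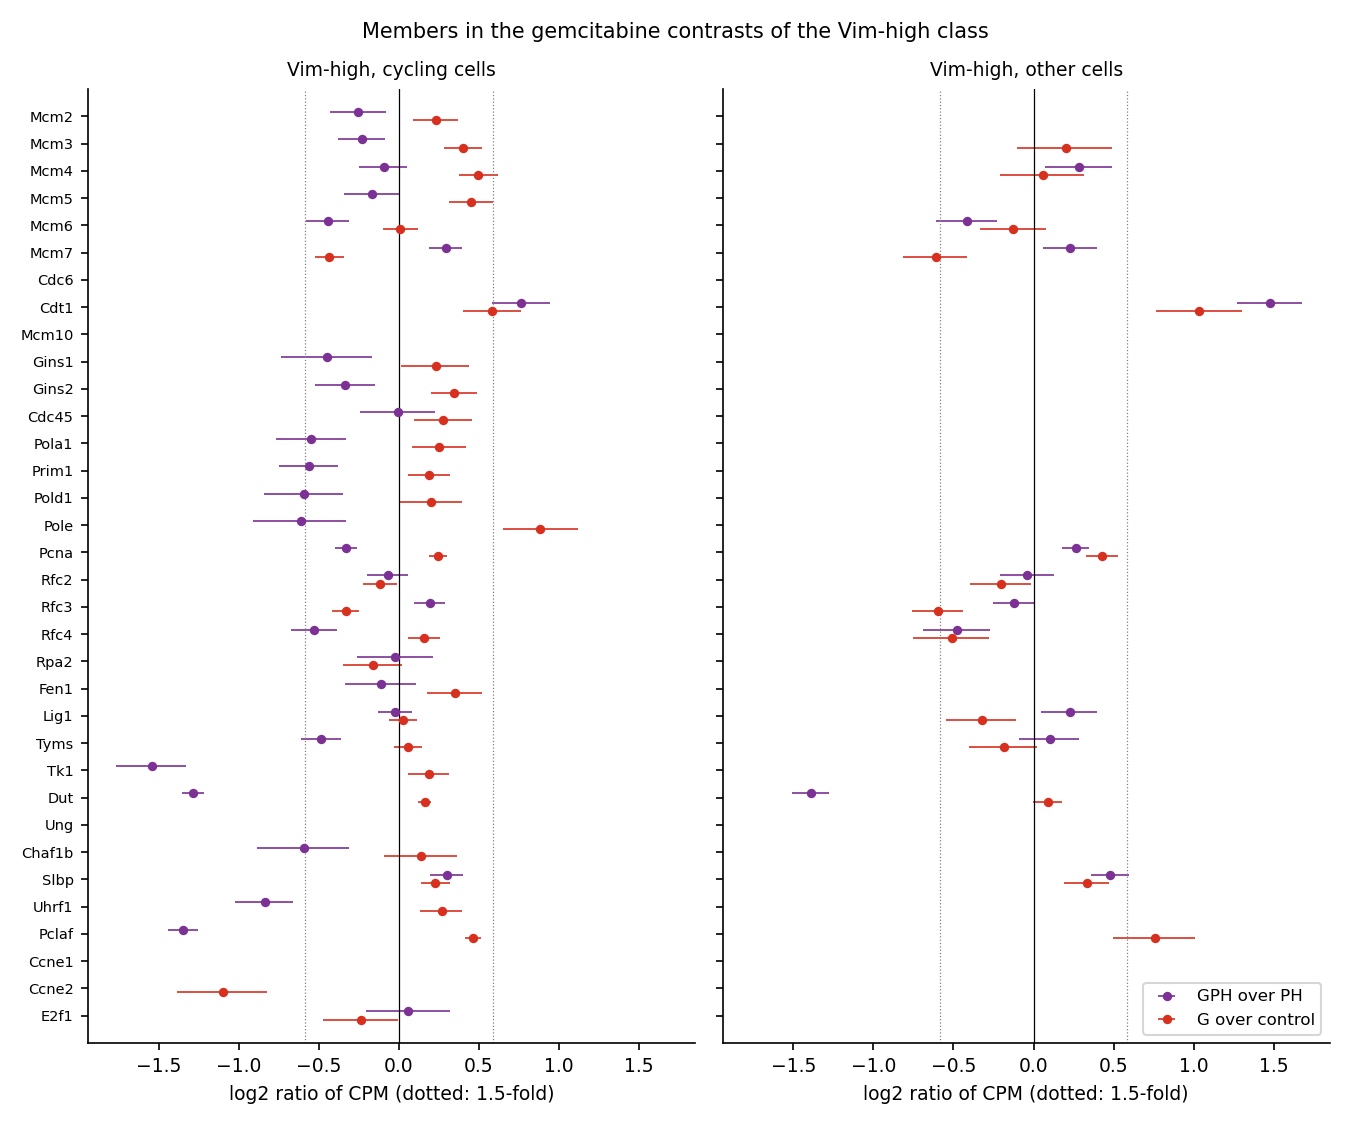
Log2 ratio of each measured replication gene in Vim-high cells (horizontal axis) for G against control and GPH against PH, in cycling and in other cells, with 95% counting intervals as bars. Cdt1 lies right of 0 in both comparisons and both sets of cells, while Dut, Tk1 and Pclaf lie at -1.29, -1.55 and -1.35 for GPH against PH in cycling cells.

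The make-up of the cycling cells differed between libraries. In GPH 22.04% of cycling Vim-high cells lay in the mitotic clusters 9 and 10, against 54.3% in G, 41.6% in PH and 42.8% in control, and 53.1% lay in cluster 4. A single UMI of Top2a or Cenpf made the call in 46.1% of them in GPH, 25.5% in G, 39.97% in PH and 38.2% in control. Their median depth was 22885 UMIs in GPH, 17838 in G, 14137.5 in PH and 16960.5 in control. The part of the mitotic clusters, the single-UMI calls and depth in the summed levels was not tested. Leaving out cluster 4, the summed level in cycling cells was 1685 CPM in GPH (1654 to 1716), 1931 in G (1909 to 1953), 1658 in PH (1649 to 1668) and 1728 in control (1718 to 1739). GPH against PH came to 1.02 (0.997 to 1.04), while GPH stayed below G at 0.873 (0.854 to 0.892) and below control at 0.975 (0.956 to 0.994). G against control stayed at 1.12 (1.10 to 1.13). For the other cells the ratios without cluster 4 were 0.887 (0.846 to 0.931) for GPH against PH and 1.11 (1.07 to 1.15) for G against control. Leaving cluster 4 out, and taking clusters 4 and 9 alone, were chosen after the data had been seen.

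Within cluster 9, which leads with Top2a, Ube2c and Cenpf and has nearly only cycling cells, the replication genes summed to 2149.7 CPM in GPH (2106 to 2194), 2168 in G (2135 to 2201), 2363 in PH (2344 to 2382) and 2283 in control (2265 to 2300). It held 102, 315, 1247 and 1106 cells. Both gemcitabine libraries were a little below both others. By member, the median log2 ratio was 0.01 for G against control and 0.24 for GPH against PH, so the median and the sum of GPH against PH differed in sign: Dut and Pclaf, with 217 CPM in GPH, 337 in G, 379 in PH and 313 in control, were low in GPH while many others were not. The pairing of libraries was seen here too. Mcm7 had 126 CPM in GPH, 73.4 in G, 73.3 in PH and 115 in control, and Rfc3 had 148, 90.05, 91.2 and 126 CPM. With Rpa2 and Ccne2 these made 4 of 31 measured members at least 1.2-fold higher in both GPH and control than in both G and PH (background 7.24%), and 0 members were higher by that much in G and PH (background 1.64%). In cluster 4, Mcm4 and Lig1 of 13 measured members were higher in GPH and control (background 7.34%) and 0 in G and PH (background 1.73%), so the members were not those of cluster 9.

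Cluster 4 had a low summed level in every library, at 542 CPM in GPH (531 to 553), 578 in G (558 to 599), 559 in PH (528 to 592) and 612 in control (599 to 626). Dut had 44.4 CPM in GPH, 67.6 in G, 76.8 in PH and 77.7 in control there, so both gemcitabine libraries were lower. G had the highest summed level in clusters 5, 7 and 8, given in the order GPH, G, PH and control, and in cluster 6 among the 3 libraries with at least 50 cells. Cluster 5 had 558, 779, 525 and 577 CPM, cluster 7 had 1114, 1568, 1305 and 1025 CPM, and cluster 8 had 534, 743, 556 and 558 CPM. Cluster 6 had 824 CPM in G, 642 in PH and 542 in control. In the mitotic cluster 10 the order differed, with 2018 CPM in G (1964 to 2072), 2050.4 in PH (2016 to 2085) and 2185 in control (2146 to 2226).

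**Figure D3:**
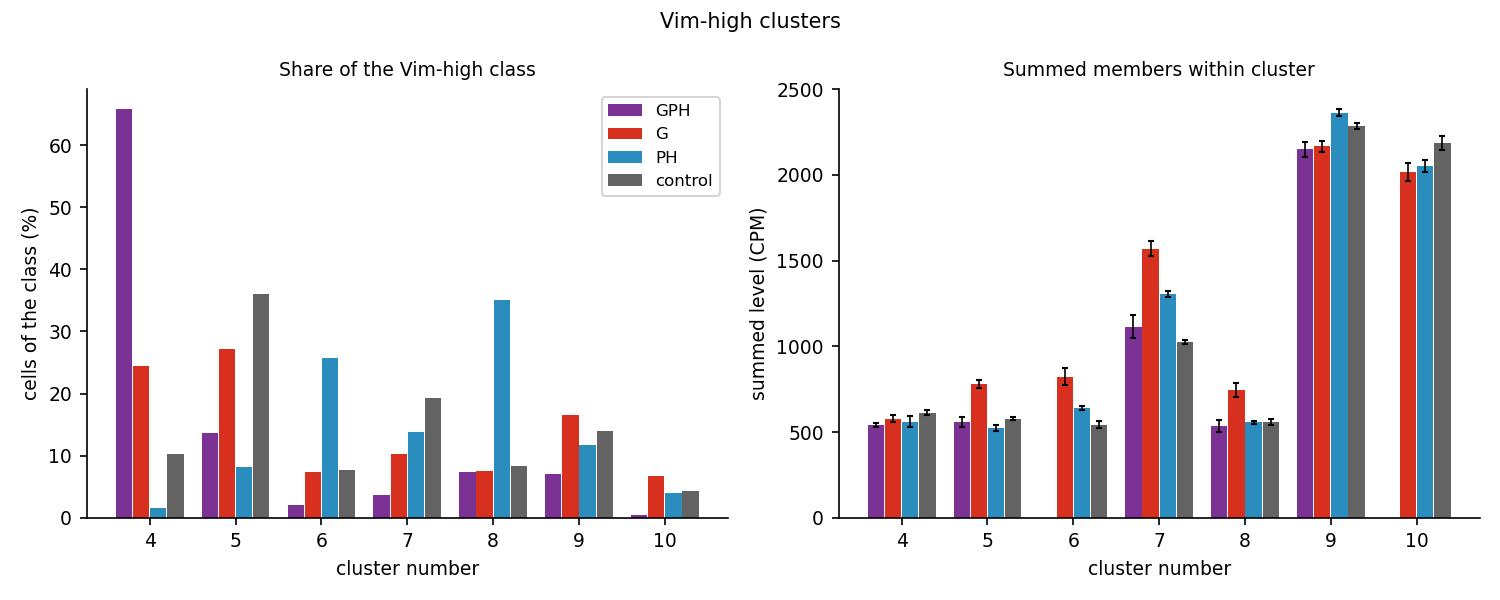
Left, share of Vim-high cells in percent in each cluster, by library; right, summed level of the 34 replication genes in CPM in each cluster and library with at least 50 cells, with 95% counting intervals as error bars (GPH had fewer in clusters 6 and 10). Cluster 4 held 65.7% of Vim-high cells in GPH and 1.62% in PH, and its summed levels lie between 542 CPM in GPH and 612 CPM in control, below those of cluster 9 in every library.

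Depth changes the chance of seeing 1 UMI, so each cell was thinned to 2000 UMIs and shallower cells were left out (23 in GPH, 35 in G, 184 in PH and 134 in control). The share of cycling Vim-high cells was then 10.5% in GPH (8.94 to 12.2), 23.5% in G (21.6 to 25.5), 17.7% in PH (17.0 to 18.5) and 17.3% in control (16.5 to 18.2). Without thinning it was 33.7%, 41.8%, 36.7% and 39.7% in GPH, G, PH and control. G was the highest and GPH the lowest either way. Cells with at least 5 UMIs of the replication genes among their 2000, called S-high here, made up 4.33% in GPH (3.34 to 5.52), 14.4% in G (12.8 to 16.0), 10.99% in PH (10.4 to 11.6) and 11.3% in control (10.6 to 12.1). Cells that were S-high without a Top2a or Cenpf UMI made up 2.24% in GPH, 6.86% in G, 5.21% in PH and 4.94% in control. Neutrophils of G, which do not divide, gave 0 S-high cells of 90 (up to 4.02%), from a class with a median of 983 UMIs before thinning, against 15314.5 in Vim-high cells of GPH. The share in GPH is close to that limit, so it is not read as above background. Plasma cells of G without a Top2a or Cenpf UMI gave 4 S-high cells of 123, 3.25% (0.893 to 8.12). The shares of Vim-high cells that were S-high without a Top2a or Cenpf UMI lay below 8.12% in every library. They are therefore not read as above background either. Without cluster 4 the S-high share was 10.5% in GPH, 18.4% in G, 11.2% in PH and 12.5% in control. GPH and PH then lay close together and G stayed the highest. The call is a range and not a cell state, since many cells sit near the line: 5.45% of all Vim-high cells in GPH, 10.98% in G, 7.01% in PH and 7.56% in control.

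**Figure D4:**
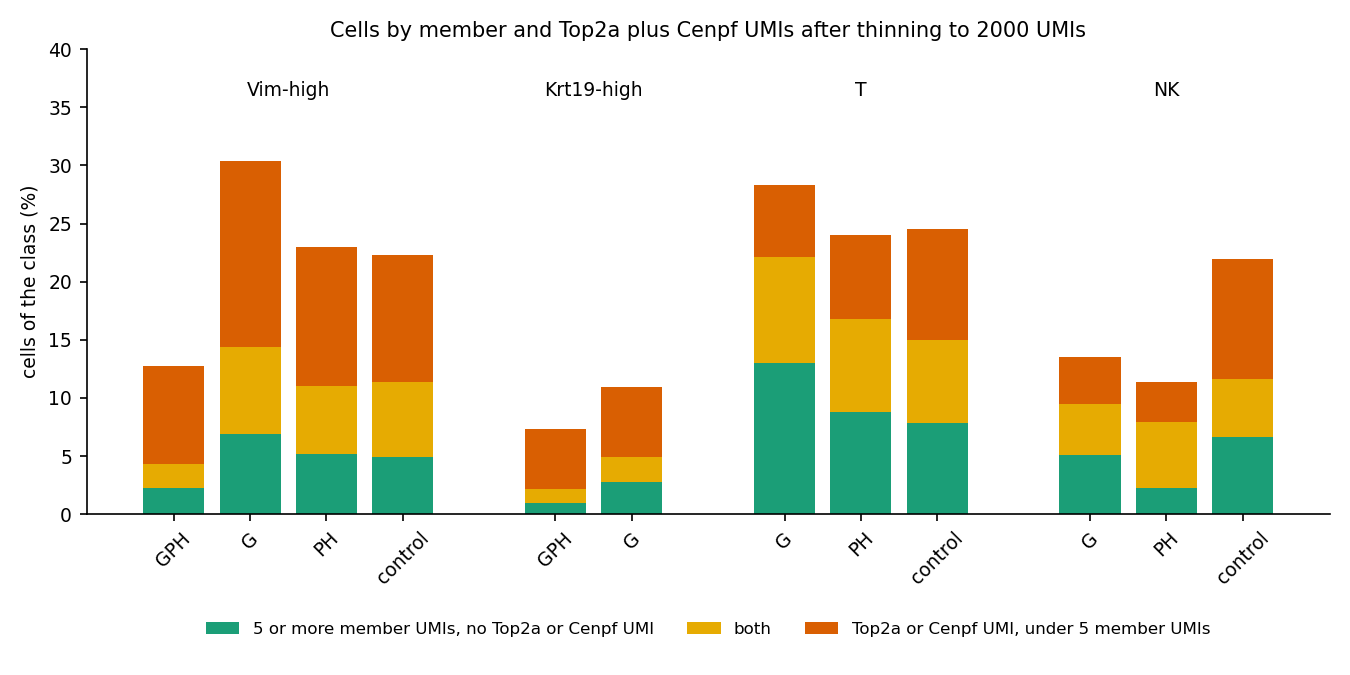
Share of cells in percent (vertical axis) after thinning each cell to 2000 UMIs, by class and library, stacked as cells that were S-high without a Top2a or Cenpf UMI (bottom), both S-high and cycling (middle) and cycling alone (top). The lower and middle parts together give the S-high share, which in Vim-high cells was 4.33% in GPH, 14.4% in G, 10.99% in PH and 11.3% in control.

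Other lists of cell-cycle genes, chosen by function, show what moved beside the replication genes in cycling Vim-high cells. For G against control the mitotic list had 13 of 24 measured genes higher and 0 lower, with a median of 0.60. The list of further replication genes had 2 of 29 higher and 0 lower (0.14), nucleotide supply 0 of 18 higher and 1 lower (0.04), the replication checkpoint 3 of 7 higher and 0 lower (0.42), and fork repair 2 of 6 higher and 0 lower (0.53). G1 regulators had 3 of 16 higher and 2 lower, and p53 targets 1 of 11 higher and 2 lower. Histones, a list of core and linker histones with the variants H2afz and H2afx, had 1 of 13 higher and 4 lower. Over all measured genes 4.13% were higher and 6.80% lower. Chek1, the checkpoint kinase that answers stalled forks, had 8.17 CPM in GPH, 15.4 in G, 12.9 in PH and 9.58 in control. Clspn, its adaptor, had 15.4 CPM in GPH, 22.5 in G, 21.7 in PH and 14.3 in control, so that both were higher in G and PH than in the other libraries. Rrm1, the large subunit of the gemcitabine target, had 30.3, 54.0, 53.7 and 36.4 CPM and Rrm2, the small subunit, 18.8, 31.4, 30.3 and 23.6 CPM in GPH, G, PH and control. They paired in the same way. Cdkn1a, the p53 target and Cdk inhibitor p21, had 63.5 CPM in GPH, 60.2 in G, 40.8 in PH and 32.6 in control, with both gemcitabine libraries above the others.

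For GPH against PH most of these lists were lower. Mitotic genes had 0 of 24 measured higher and 10 lower, with a median of -0.47, and further replication genes 0 of 28 higher and 4 lower (-0.18). Nucleotide supply had 2 of 18 higher and 6 lower (-0.28), the checkpoint 1 of 8 higher and 2 lower (-0.28), and fork repair 0 of 5 higher and 2 lower (-0.47). Histones, mostly transcribed in S phase, had 0 of 10 higher and 9 lower, with a median of -1.27, the lowest among these 8 lists. The p53 targets had 7 of 12 higher and 0 lower, with a median of 0.76 against the 0.10 of all genes, and G1 regulators 4 of 16 higher and 2 lower (0.07). Over all measured genes 17.4% were higher and 7.11% lower. Most of these histone mRNAs lack a poly(A) tail, and how evenly the 4 libraries counted them was not tested.

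In Krt19-high cells, only GPH and G could be compared, and both received gemcitabine. Their cycling cells summed to 850.5 CPM of the replication genes in GPH (840.2 to 861) and 1196 in G (1179 to 1213), a ratio of 0.711 (0.698 to 0.725). Mitotic genes lay close together, at 1288 CPM in GPH and 1314 in G, so that replication UMIs per mitotic UMI over all cells were 1.02 in GPH (1.00 to 1.03) and 1.26 in G (1.23 to 1.28). Cells called other had 296 CPM in GPH and 341 in G. The 24 measured members of cycling cells had a median of -0.31 (-0.57 to -0.13), against 0.24 over all genes. None was higher (background 17.6%) and 6 were lower (background 3.07%). Those 6 were Mcm4, Gins2, Dut, Prim1, Slbp and Pclaf. Among the other cells, Dut was the 1 lower member of 9 measured (background 3.51%), with 0 higher (background 20.3%) and a median of -0.09.

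Pclaf and Dut were the lowest in GPH here by the bound of the interval nearest to no difference. Pclaf had 76.0 CPM in GPH and 182 in G, a ratio of 0.418 (0.396 to 0.442), in cycling Krt19-high cells. Dut had 97.7 CPM in GPH and 178 in G, a ratio of 0.549 (0.521 to 0.578), and in cells called other 36.4 and 62.4 CPM, a ratio of 0.583 (0.547 to 0.622). The intervals of all 3 ratios lay below 1. Mcm4 had 14.1 CPM in GPH and 23.5 in G (0.601, 0.522 to 0.692), Slbp 27.2 and 43.3 (0.627, 0.566 to 0.694), and Pcna 108 and 159 (0.675, 0.641 to 0.711). Rfc3 had 34.5 CPM in GPH and 29.8 in G, a ratio of 1.16 (1.04 to 1.29). Among the other cells, Rfc3 was at 1.24 (1.10 to 1.40), Slbp at 0.747 (0.681 to 0.820), Pcna at 0.832 (0.790 to 0.876) and Rfc4 at 0.804 (0.700 to 0.925). Slbp was thus lower in GPH than in G here, whereas in Vim-high cells it was higher in GPH than in PH.

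Mitotic genes of cycling Krt19-high cells had 1 of 24 measured higher and 0 lower in GPH against G. Histones had 0 of 8 higher and 6 lower (-0.81), and p53 targets 4 of 12 higher and 0 lower (0.37), where 17.6% of all measured genes were higher and 3.07% lower. Cdkn1a had 88.6 CPM in GPH and 46.8 in G in cycling cells and 147 and 57.8 CPM in cells called other. After thinning, 6.34% of Krt19-high cells were cycling in GPH (5.28 to 7.55) and 8.12% in G (6.69 to 9.75). S-high cells made up 2.20% in GPH (1.59 to 2.98) and 4.95% in G (3.83 to 6.28), below and just above the 4.02% that neutrophils allow, so no difference is read from them.

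In cycling T-like cells the replication genes were higher in G than in control. Their summed level was 3442 CPM in G (3400 to 3484), 3099 in PH (2914 to 3292) and 2628 in control (2470 to 2793), and PH, which received no gemcitabine, was also above control. GPH had 13 such cells and was not compared. The ratio of G to control was 1.31 (1.23 to 1.40) and that of PH to control was 1.18 (1.08 to 1.29). A single UMI of Top2a or Cenpf made the call in 37.2% of these cells in G, 49.3% in PH and 53.8% in control. At 2 UMIs or more the sum was 3734 CPM in G, 3805 in PH and 3304 in control, from 564, 35 and 42 cells. The libraries lay closer together there, with PH and control under 50 cells. The part of the single-UMI calls was not tested. The other T-like cells had 1024 CPM in G, 799 in PH and 857 in control. The mitotic list ran the other way, at 1788 CPM in G, 1847 in PH and 2094 in control in cycling cells. Replication UMIs per mitotic UMI over all T-like cells were 2.42 in G, 2.50 in PH and 1.88 in control, so that G and PH stood together. GPH had 54 T-like cells in all, and their replication genes summed to 1190 CPM (1045 to 1348). Over all T-like cells the sum was 2048 CPM in G, 1428 in PH and 1389 in control. GPH, which also received gemcitabine, thus did not share the higher level of G.

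Of the 34 genes, 33 were measured in cycling T-like cells for G against control. At least 1.5-fold higher were 10 of them (background 11.5%) and lower 0 (background 22.5%), with a median of 0.26 (0.17 to 0.50) against -0.13 over all genes. The 10 were Mcm2, Mcm5, Mcm10, Gins1, Gins2, Cdc6, Cdc45, Cdt1, Dut and Fen1. Mcm10 and Gins1 were at 2.55 and 7.66 CPM in control, on 1 and 3 UMIs, and reached the measured mean only through G, which leaves 8 genes with both libraries at 10 CPM or more. For PH against control, with the same control cells, 23 were measured, of which 5 were higher (background 12.3%) and 0 lower (background 18.4%), with a median of 0.22. Those 5 were Mcm2, Mcm5, Gins2, Pold1 and Fen1, and all but Pold1 were also among the 10 of G. Without doublet removal the median for PH against control was -0.06, and that for G against control was 0.60.

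Dut had 611 CPM in G, 418 in PH and 304 in control in cycling T-like cells, a ratio of G to control of 2.01 (1.68 to 2.43). Among the other T-like cells it had 217, 123 and 124 CPM, a ratio of 1.75 (1.45 to 2.13). G was the highest library in both sets. Mcm5 had 81.4 CPM in G, 68.2 in PH and 35.8 in control (2.28, 1.35 to 4.19), Gins2 45.9, 47.4 and 17.9 CPM (2.57, 1.23 to 6.43), and Fen1, the flap endonuclease of Okazaki fragments, 40.8, 47.4 and 12.8 CPM (3.19, 1.35 to 9.90). Control had few UMIs behind these values, with 14, 7 and 5 for Mcm5, Gins2 and Fen1. Mcm10 had 20.3 CPM in G, 8.90 in PH and 2.55 in control, where it rested on 1 UMI, and the ratio of G to control of 7.96 has an interval of 1.41 to 316.

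T-like cells called other had 20 measured members for G against control, of which Mcm2, Pcna, Dut, Rfc3 and Pclaf were higher (background 11.3%) and Cdt1 and Rpa2 lower (background 14.3%). Of these, Mcm2 was under 10 CPM in control. The median was 0.15 against -0.05 over all genes. Pclaf had 57.8 CPM in G, 17.9 in PH and 17.6 in control, a ratio of G to control of 3.29 (2.01 to 5.79), so G stood alone. Pcna was at 1.53 (1.26 to 1.88) and Slbp at 1.46 (1.15 to 1.88). Rpa2, of the single-strand binding complex, had 36.7 CPM in G, 78.1 in PH and 72.5 in control, a ratio of 0.506 (0.389 to 0.668). Mcm6 was at 0.696 (0.557 to 0.879) and Mcm7 at 0.668 (0.461 to 0.999). For PH against control, 16 were measured, with 0 higher (background 12.1%), Mcm7 and Pola1 lower (background 14.1%; both under 10 CPM in PH) and a median of -0.05.

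The T-like class was made of clusters in different shares. Cluster 12, which leads with Cd8b1, Cd3g and Cxcr6, held 42.5% of T-like cells in G, 66.9% in PH and 60.0% in control, cluster 21 held 26.4%, 16.6% and 18.9%, and cluster 22, which leads with Tnfrsf4 and Ctla4, held 31.2%, 16.6% and 21.005%. Over all cells of cluster 12 the replication genes summed to 2292 CPM in G (2260 to 2324), 1599 in PH (1518 to 1684) and 1573 in control (1485 to 1665). In cluster 22 they summed to 2328 CPM in G, 1118 in PH and 1332 in control. G was thus the highest in both. In cluster 21 the 3 libraries were closer, at 1109 CPM in G, 840.0 in PH and 996 in control. Thinning left out 614 of 3918 T-like cells in G, 185 of 435 in PH and 145 of 438 in control. The thinned shares thus cover unlike parts of the libraries. The share of cycling cells after thinning had overlapping intervals, at 15.3% in G (14.1 to 16.6), 15.2% in PH (10.99 to 20.3) and 16.7% in control (12.6 to 21.5). S-high cells made up 22.1% in G (20.7 to 23.5), 16.8% in PH (12.4 to 22.02) and 15.0% in control (11.1 to 19.6). Cycling cells were deeper in G, with a median of 7298.5 UMIs against 3502 in PH and 3613 in control, and the part of depth in the summed levels was not tested.

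Other lists in cycling T-like cells of G against control split in the same way. Further replication genes had 9 of 34 measured higher and 3 lower (0.25), and nucleotide supply 7 of 16 higher and 0 lower (0.53). Mitotic genes had 2 of 24 higher and 7 lower (-0.26), p53 targets 1 of 15 higher and 8 lower (-0.59), G1 regulators 2 of 19 higher and 6 lower (-0.49), and histones 7 of 17 higher and 2 lower (0.10). The checkpoint list had 0 of 11 higher and 1 lower, and fork repair 2 of 12 higher and 2 lower. Of all measured genes 11.5% were higher and 22.5% lower. Rrm1 had 128 CPM in G, 130 in PH and 69.0 in control, and Cdkn1a 67.4 CPM in G, 47.4 in PH and 110 in control. PH thus stood with G in Rrm1, and both were below control in Cdkn1a.

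NK-like cells were fewer, and their cycling cells numbered 153 in G and 66 in control. The replication genes summed to 2733 CPM in G (2640 to 2829) and 2256 in control (2131 to 2387) in cycling cells, and to 691 CPM in G and 735 in control in cells called other. The mitotic list had 1190 CPM in G and 1836 in control, and replication UMIs per mitotic UMI over all cells were 3.44 in G, 3.29 in PH and 1.86 in control. As in T-like cells, G and PH stood together above control. Of 31 measured members in cycling cells, Mcm5, Pole, Fen1, Uhrf1 and Ccne1 were higher (background 18.3%) and Gins2 and Rfc2 lower (background 13.9%; Fen1 and Ccne1 were under 10 CPM in control), with a median of 0.28 (-0.00 to 0.51) against 0.02 over all genes.

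Uhrf1 had 55.6 CPM in G and 15.0 in control, from 66 and 8 UMIs, a ratio of 3.71 (1.77 to 8.94). Fen1 had 32.0 CPM in G and 9.37 in control (3.41, 1.34 to 11.1). Pcna had 316 CPM in G and 219 in control (1.44, 1.17 to 1.79), and Pclaf 561 CPM in G and 414 in control (1.35, 1.16 to 1.58). The histone mRNA binder Slbp was also higher, at 222 CPM in G and 150 in control (1.48, 1.15 to 1.93). Rfc2 was at 0.651 (0.446 to 0.957) and Tyms at 0.731 (0.538 to 1.00). Among the other NK-like cells, 17 members were measured, of which Slbp was higher (background 14.1%) and Mcm2, Mcm5, Tyms, Dut, Rfc2 and Rfc4 lower (background 14.5%), with a median of -0.40. Mcm2, Mcm5 and Rfc4 were under 10 CPM in G. Dut had 84.4 CPM in G, 59.9 in PH and 138 in control there, a ratio of 0.610 (0.4997 to 0.747) for G against control and of 0.433 (0.257 to 0.693) for PH against control, so that PH, without gemcitabine, was lower still. Mcm5 had 8.57 CPM in G and 21.1 in control (0.405, 0.229 to 0.730). PH against control had 13 measured members in these cells, with 0 higher (background 15.8%), 5 lower (background 21.7%) and a median of -0.49. Of the 5, Mcm2 and Pclaf were under 10 CPM in PH, which leaves 3.

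**Figure D5:**
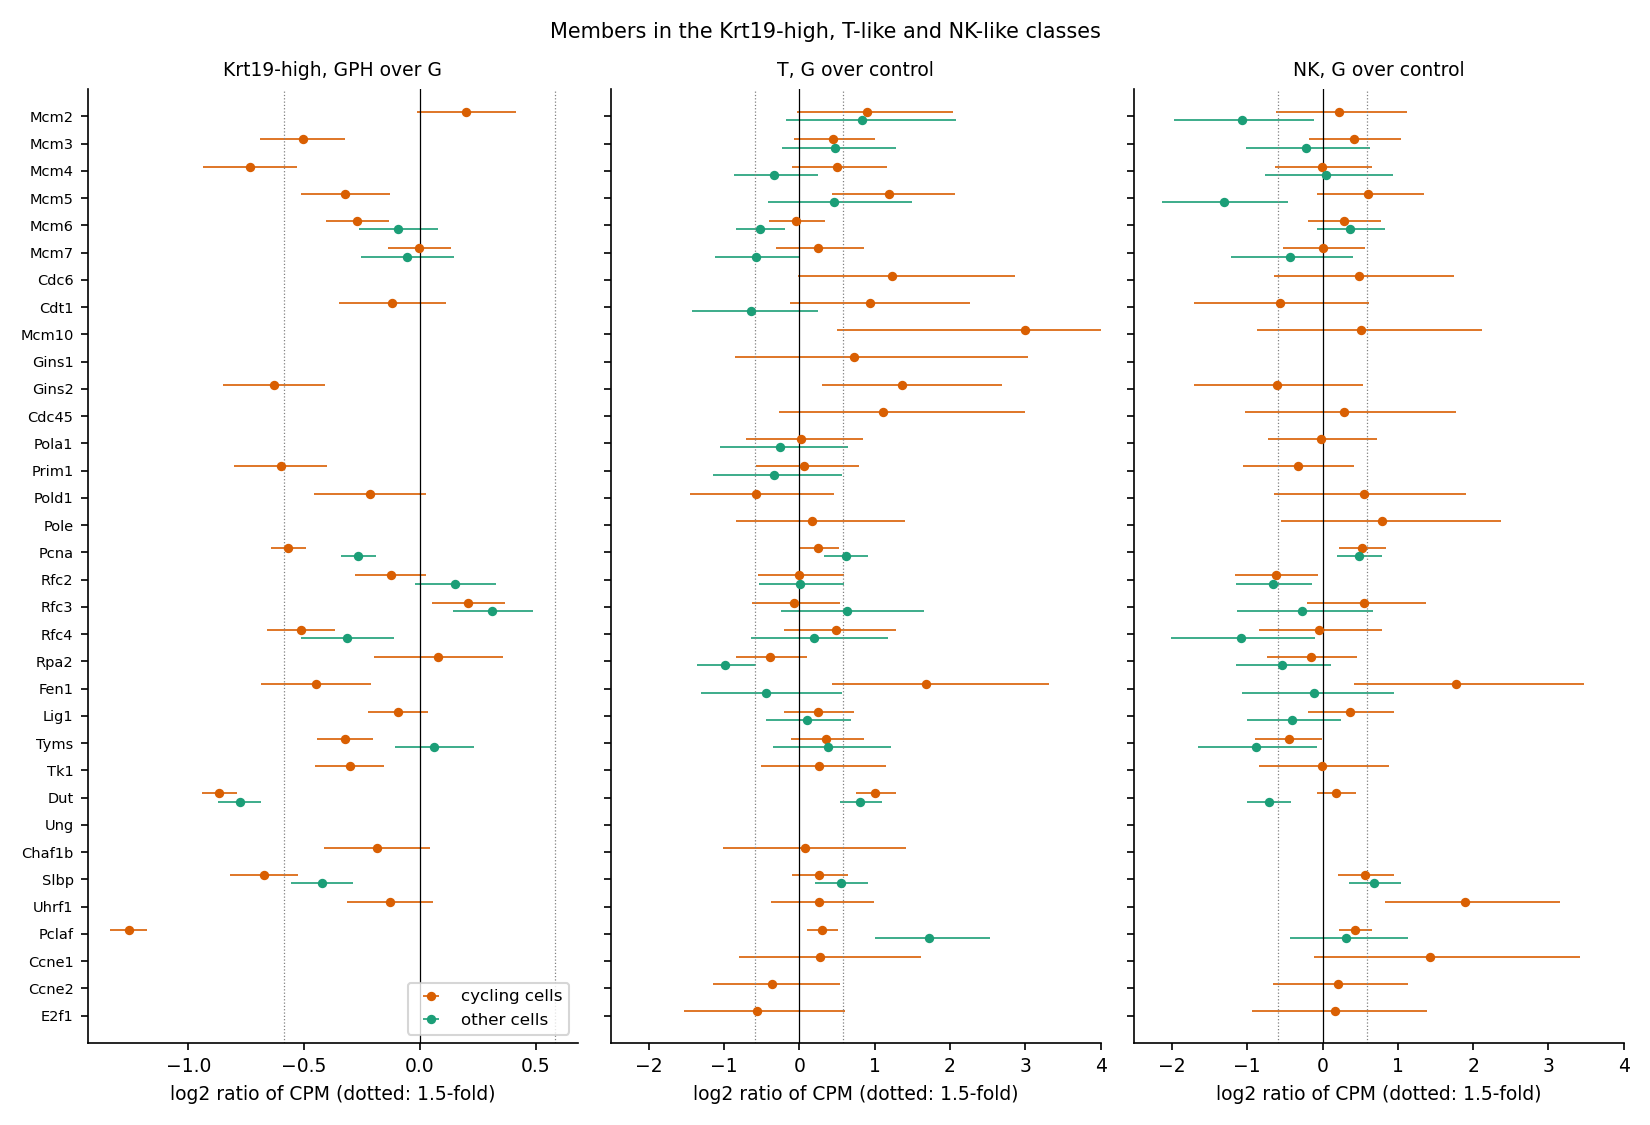
Log2 ratio of each measured replication gene (horizontal axis) in cycling and in other Krt19-high cells of GPH against G, and T-like and NK-like cells of G against control, with 95% counting intervals as bars, cut off at the edge of the axis. Among cycling cells Pclaf lies lowest in Krt19-high cells (-1.26), and Mcm10 lies highest in T-like cells (2.99), on 1 UMI in control.

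After thinning, 8.41% of NK-like cells were cycling in G (6.74 to 10.3), 9.09% in PH (4.01 to 17.1) and 15.4% in control (11.05 to 20.5). Thinning left out 110 of 1073 NK-like cells in G, 28 of 116 in PH and 28 of 269 in control. S-high cells made up 9.45% in G, 7.95% in PH and 11.6% in control, with intervals that overlap. Mitotic genes of cycling NK-like cells had 0 of 22 measured higher and 11 lower in G against control (-0.64), and checkpoint genes 6 of 10 higher and 0 lower (0.84). Further replication genes had 5 of 30 higher and 3 lower (0.08). Of all measured genes 18.3% were higher and 13.9% lower.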

How the data were processed

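The authors deposited raw UMI counts per gene and barcode, 1 matrix for each of 4 libraries, each with 32285 features and not normalized by the authors. Per the submitters' processing notes, they come from Cell Ranger 6.1 against mm10, whereas the file headers name Cell Ranger 7.0.1. Libraries held 7918 barcodes (GPH), 16748 (G), 18589 (PH) and 13120 (control), and 143298547, 144152432, 190110092 and 158887422 UMIs. The lowest total of a barcode was 500 UMIs.

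Cells were kept with at least 500 UMIs, 300 genes and at most 20% mitochondrial UMIs. Scrublet's automatic thresholds called 7 doublets in GPH, 0 in G, 1 in PH and 0 in control and did not work, so the highest scores were removed at 0.8% per 1000 cells (168, 1573, 2056 and 977 barcodes). Of those removed, 41.7%, 40.2%, 57.9% and 64.9% were cycling, against 27.4%, 20.5%, 31.2% and 36.7% of the cells kept. Cells were clustered jointly without batch correction (2000 variable genes, 30 principal components, 15 neighbours, Leiden resolution 1.0). Clusters with Ptprc at 50 CPM or more were immune. Of the rest, those with Xist under 50 CPM were, unless their median depth fell under 1/3 of that of their libraries, Krt19-high at 1000 CPM of Krt19 and otherwise Vim-high at 2000 CPM of Vim. T-like and NK-like clusters had at least 3 markers of their type at 50 CPM and 2-fold over other cells. Software was Python 3.11.15, scanpy 1.11.5, anndata 0.12.19, numpy 2.4.6, scipy 1.17.1, pandas 2.3.3, scikit-learn 1.9.0, igraph 0.11.9 and matplotlib 3.10.9.

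UMIs were summed over each class, library and subset with at least 50 cells and scaled to their total (CPM). Levels carry exact Poisson, ratios exact conditional binomial, and shares exact Clopper-Pearson 95% intervals, and medians order-statistic intervals. The scripts were tested on simulated data. With 1 library a group no replicate exists and no p-value is given. The genes with full values were, for each gemcitabine comparison, up to 5 in each direction by the interval bound nearest to no difference, and those past 1.5-fold the same way in both comparisons of Vim-high cells. Of genes outside the list, Rrm1, Rrm2, Cdkn1a, Chek1 and Clspn were named by rule. The 34 genes, the other lists and the rules were chosen with earlier results of these data known. Alternatives covered doublets, mitochondrial share, scaling, filters, the cycling call, clustering, classes and weighting. The low-depth clusters and clusters 4 and 9 were treated as alternatives chosen after seeing the data.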

Additional observations from a re-analysis of the deposited data

Results flagged for a closer look

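In cycling Vim-high cells the summed level of the replication genes differed with gemcitabine in opposite directions, depending on whether paricalcitol and hydroxychloroquine were present: the ratio was 0.713 (0.701 to 0.725) for GPH against PH and 1.12 (1.10 to 1.13) for G against control. Each group is 1 library, and this difference between the comparisons was not tested. Without cluster 4 the ratios were 1.02 (0.997 to 1.04) and 1.12 (1.10 to 1.13).

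Cells of low depth were left out of the classes above. A low-depth cluster with high Krt19 held 232 cells of GPH and 17 of G, with median depths of 999 and 1342 UMIs. In GPH its replication genes summed to 531 CPM (470 to 597) from 275 UMIs, above the limit of a count of 0, and in G to 294 CPM (141 to 542) from 10 UMIs. PH and control had 0 such cells.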

How the results depend on the processing

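Medians below are log2 ratios of the replication genes in Vim-high cells unless another class is named. For G against control in cycling cells the median was 0.31 without mitochondrial and ribosomal protein genes in the total, 0.084 with cycling at 2 UMIs, -0.028 with cycling called at 2000 UMIs, 0.040 with classes from each cell's own markers and 0.0053 in cluster 9 alone. In cells called other it was -0.53 in cluster 4 alone. For GPH against PH in cycling cells it was 0.12 with cycling called at 2000 UMIs, 0.24 in cluster 9 alone, 0.27 without cluster 4 and 0.24 with equal weight for each cluster, and -0.43 in cells called other with no filter on low values. For GPH against G in cycling cells it was -0.70 when centred on all genes, -0.20 with cycling at 2 UMIs, 0.013 with cycling called at 2000 UMIs, -0.70 as a mean of each cell's CPM, -0.28 in cluster 4 alone, 0.26 in cluster 9 alone, 0.059 without cluster 4 and 0.090 with equal weight for each cluster. In cells called other it was -0.13 without mitochondrial and ribosomal protein genes, -0.20 when centred, -0.24 with no filter, -0.096 with cycling at 2 UMIs, -0.53 with cycling called at 2000 UMIs and -0.15 without cluster 4. For GPH against control in cycling cells it was -0.16 with cycling at 2 UMIs, -0.050 with cycling called at 2000 UMIs, -0.55 with own markers, -0.15 in cluster 4 alone, 0.18 in cluster 9 alone, 0.13 without cluster 4 and 0.054 with equal weight for each cluster, and -0.55 in cells called other with cycling called at 2000 UMIs. In Krt19-high cells GPH against G was -0.11 with cycling called at 2000 UMIs. In cycling T-like cells G against control was 0.60 without doublet removal and 0.98 with own markers, and PH against control was -0.056 without doublet removal. The summed level of T-like cells of G called other was 1059.5 CPM among cells of at least 2000 UMIs.

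Log2 ratios of the share of cycling cells, thinned to 2000 UMIs, were 0.44 for G against control and -0.76 for GPH against PH in Vim-high cells and -0.36 for GPH against G in Krt19-high cells, thinned to 5000 UMIs 0.33, -0.65 and -0.30, and with 2 UMIs 0.34, -0.28 and -0.27. In T-like cells G against control was 0.59 with 2 UMIs and -0.20 without doublet removal, and in NK-like cells -1.16 and -1.72. For the S-high share, G against control was 0.55 without cluster 4 in Vim-high cells and 0.14 at 3 UMIs in T-like cells, and GPH against PH was -0.60 at 3 UMIs, -2.00 at 8 UMIs and -0.085 without cluster 4. Replication over mitotic UMIs in cycling cells alone had log2 ratios of -0.39 for G against control and 0.011 for GPH against PH in Vim-high cells, -0.46 for GPH against G in Krt19-high cells and 0.62 for G against control in T-like cells, where it was 0.69 without doublet removal.

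Single genes that changed sign were Ccne2 (0.13) and Rfc2 (0.092) for G against control in cluster 4 alone. For GPH against PH in cycling cells Rfc3 came to -0.033 as a mean of each cell's CPM and Rfc4 to 0.022 without cluster 4. In cells called other Pcna came to -0.064 with cycling called at 2000 UMIs, -0.070 in cluster 4 alone, -0.17 without cluster 4 and -0.031 with equal weight for each cluster, Mcm4 to -0.018 with cycling called at 2000 UMIs and -0.025 without cluster 4, and Mcm6 to 0.105 with equal weight for each cluster. Rfc3 came to -0.031 for GPH against G in cycling Krt19-high cells when centred. For G against control with own markers, Mcm6 came to 0.030 in T-like cells called other and Mcm5 to 0.33 in NK-like cells called other, and Tyms in cycling NK-like cells came to 0.053, or 0.18 without doublet removal. Cdt1 ranged from 0.36 to 1.34 for G against control and from 0.65 to 1.68 for GPH against PH in Vim-high cells called other, Dut from -1.58 to -0.65 and Tk1 from -1.92 to -0.74 for GPH against PH in cycling cells. Of the values of single genes, 888 stayed within their interval, and 170 left it with their sign unchanged. Of the group values, 304 stayed within theirs. The cause of these changes was not tested.

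No paired analysis was possible because each group has 1 library, and the design has no replicate to leave out. The spread between animals is not measured, depth limits the members under 10 CPM, and gemcitabine is confounded with the Y-linked difference and with the share of cluster 4.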

Other observations

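Low-depth clusters with high Vim, also left out of the classes, held 562 cells of GPH, 245 of G, 2161 of PH and 740 of control. Their replication genes summed to 652 CPM in GPH (625 to 681), 769 in G (713 to 829), 741 in PH (723 to 760) and 1323 in control (1282 to 1365). Control was the highest of the 4 libraries there, whereas over all Vim-high cells of full depth G was the highest, at 1356 CPM against 1178 in control. The low-depth cells were unlike sets: 1814 of those in PH but 7 in control came from cluster 23. Cycling cells made up 23.3% of them in GPH, 18.0% in G, 11.2% in PH and 30.1% in control.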
